A study of Mus musculus with 16 samples.

Results

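The genes described here are the 10 rows with the symbols Trem2, Tyrobp, Clec7a, Itgax, Axl, Cst7, Lpl, Gpnmb, Spp1 and Lgals3, out of the 24411 gene symbols of the deposited tables. They were chosen by name, as genes known for the disease-associated state of microglia, and all 10 passed the filter on low values and were tested. Clec7a, Itgax, Cst7 and Lgals3, at 0 TPM in both controls, passed it only through the SCI mice. Spinal cord RNA of 16 female C57BL/6J mice was sequenced in bulk, with 7 SCI + Vehicle mice, 7 SCI + Atorvastatin mice and 2 Uninjured Control mice, each mouse giving 1 library. The SCI mice were injured at 12 wk of age under xylazine and ketamine, by lateral compression of the cord to a 0.25 mm gap at a thoracic level. From 2 wk after the injury they received daily for 4 wk either atorvastatin at 10 mg/kg, a statin that inhibits cholesterol synthesis, in a vehicle of DMSO, polyethylene glycol, Tween 80 and saline, or that vehicle alone. The Uninjured Control mice had neither injury nor treatment, so they differ from the SCI groups in the surgery, the anesthesia and the vehicle as well as in the compression. They also differ in age, because the labels give the controls as 12 wk old and the SCI mice were taken 6 wk after an injury at that age. All mice were perfused with saline and a 5 mm piece at the injury or the matching level was taken, 6 wk after injury in the SCI mice. The labels and the methods text differ by a few days on the time of harvest and somewhat on the age of the Uninjured Control mice, which were younger at harvest than the SCI mice by either source.

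Microglia are the resident macrophages of the central nervous system. Near dying neurons, amyloid or damaged myelin they lower part of their resting gene set, such as the purinergic receptor P2ry12, and raise a set of genes for lipid handling, lysosomal digestion, adhesion and phagocytosis. The receptor Trem2, which senses lipids and lipoproteins, signals through the adaptor Tyrobp and the kinase Syk and is needed for the full programme in mouse models of neurodegeneration. None of the 10 genes is exclusive to microglia: blood-derived macrophages can transcribe all of them, Spp1 is also made by motor neurons, Axl by astrocytes and endothelium, and Lpl by muscle and fat.

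The libraries held from 14823292 counts, in SCI + Vehicle replicate 4, to 25579826. The Uninjured Control libraries held 20211276 and 22368736 counts, and they stood apart from the rest in ways that touch every comparison below. They had counts in 12732 and 12356 genes, against 16399 to 19338 genes in the SCI mice. Liver marker genes summed to 5430 and 957 TPM (the authors' level per transcript length, scaled to a fixed sum per library) in Uninjured Control replicates 1 and 2, and to at most 10.0 TPM in any SCI mouse. Counts and TPM also disagreed for low genes there, as for Tyrobp, which had 33 counts and 0 TPM in replicate 2. Injury, tissue carried into the library and library quality cannot be told apart in a group of 2 such mice, so the values of both are given for each gene.

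RefSeq promoter windows from 250 bases before to 50 bases after a transcription start were found for 8 of the 10 genes, in 10 windows, and none was found for Tyrobp and Lpl. They were searched on both strands for 4 short motifs, TGANTCA of AP-1 (Fos and Jun family), AGGAAGT of PU.1 and other ETS factors, TCANGTG of the E-box bound by the Mitf and Tfe family, and TATAAA. No 2 matches in the windows of these genes overlap. TGANTCA was present in 4 of the 8 genes, Trem2, Itgax, Cst7 and Gpnmb, and in 7.81% of the 32851 promoter windows of the table. The stretch from 80 bases before to 20 bases after the start is shown for these 4 genes, 5′ to 3′ on the strand of the gene with the TGANTCA match in capitals, because it is the motif that the most of these genes held.
Trem2, chr17:48346321-48346420, + strand, GRCm38.p6: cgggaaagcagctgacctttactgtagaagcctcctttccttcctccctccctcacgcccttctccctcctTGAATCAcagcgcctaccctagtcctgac
Itgax, chr7:128129470-128129569, + strand, GRCm38.p6: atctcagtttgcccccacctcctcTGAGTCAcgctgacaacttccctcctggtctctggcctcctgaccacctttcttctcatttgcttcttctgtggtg
Cst7, chr2:150570335-150570434, + strand, GRCm38.p6: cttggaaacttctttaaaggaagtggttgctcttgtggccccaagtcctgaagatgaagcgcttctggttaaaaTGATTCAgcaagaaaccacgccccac
Gpnmb, chr6:49036438-49036537, + strand, GRCm38.p6: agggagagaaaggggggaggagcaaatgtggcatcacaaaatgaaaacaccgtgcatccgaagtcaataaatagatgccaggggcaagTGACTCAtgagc
The matches begin 9, 56 and 6 bases before the start in Trem2, Itgax and Cst7, and 8 bases after it in Gpnmb. Those of Itgax (TGAGTCA) and Gpnmb (TGACTCA) have the G or C of the AP-1 consensus at the open base. Those of Trem2 (TGAATCA) and Cst7 (TGATTCA) do not, and the share of 7.81% covers the loose pattern. AGGAAGT was present in Cst7 and Spp1 (9.35% of all windows), TCANGTG in Cst7 and Lgals3 (14.3%) and TATAAA in Clec7a and Spp1 (13.6%). The TCANGTG matches read TCAAGTG in Cst7 and TCAGGTG in Lgals3. Neither has the C or T of the Mitf and Tfe E-box at the open base. Axl held none of the 4 motifs in its window. A match describes letters in a window and does not show that a factor binds there.

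In SCI + Vehicle vs. Uninjured Control, all 10 genes were upregulated, and in SCI + Atorvastatin vs. Uninjured Control all 10 were upregulated too. A gene was called at a log2 fold change beyond 0.322, which is a change of 25%, and a Benjamini-Hochberg adjusted p below 0.05 in edgeR's quasi-likelihood test over all 16091 genes tested. By the same rule 19.8% of all genes tested were upregulated in the SCI + Vehicle comparison and 24.9% in the SCI + Atorvastatin comparison. The median log2 fold change of the 10 genes was 5.83 and 6.11, beside 0.17 and 0.21 over all genes tested. Genes with 0 counts in both controls lie above the middle of the 10 even at their lower bounds. Setting them there could not move the medians, so it is no test of them. These genes passed the filter only through the SCI mice, and they lift the medians. The other 6 genes ranged from 1.24 (Axl) to 6.73 (Gpnmb) in SCI + Vehicle and from 1.39 to 7.09 in SCI + Atorvastatin. The medians lie between Trem2 and Gpnmb, and the fold of Trem2 depends on the control, as given below. Every SCI mouse was above both Uninjured Control mice for each of the 10 genes on library-scaled counts (CPM, with TMM factors), which held for 24.8% of all genes tested in the SCI + Vehicle group and for 29.7% in the SCI + Atorvastatin group. The comparisons share the same 2 controls and are not independent of each other. Clec7a, Itgax, Cst7 and Lgals3 entered the test only through the SCI mice. With a mean TPM above 1 required in every condition, the other 6 genes were tested and all 6 were upregulated in both comparisons. By that filter 1261 (SCI + Vehicle) and 1774 (SCI + Atorvastatin) of 12559 genes were upregulated. In bulk tissue, more cells that transcribe a gene and more RNA of it per cell cannot be told apart.

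The calls held with DESeq2 and with limma on log2(TPM + 1), and with each mouse left out in turn, each control included. They did not hold with voom when each group had its own quality weight, which called 0 of the 10 genes in the SCI + Vehicle comparison (adjusted p from 0.0761 to 0.624, with 4 genes at an unadjusted p below 0.05) and only Axl in the SCI + Atorvastatin comparison. That method called 132 and 145 genes in all.

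**Figure D1:**
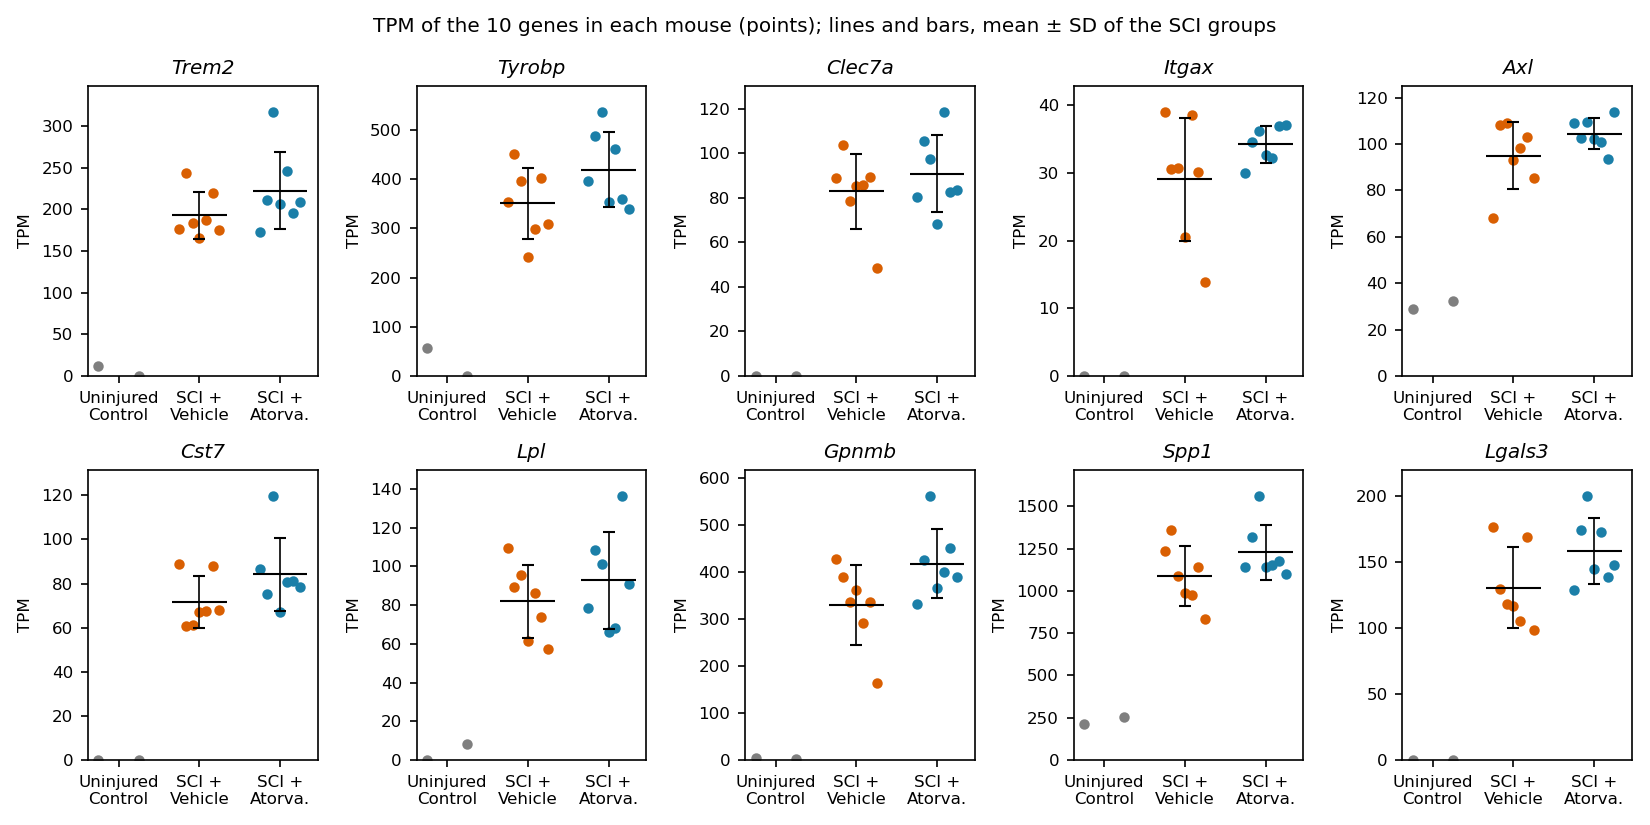
TPM (vertical axis, from 0) of each of the 10 genes in each mouse, shown as points for the Uninjured Control (grey), SCI + Vehicle (orange) and SCI + Atorvastatin (blue) groups, with lines and bars for the mean and SD of the SCI groups. All 14 SCI mice lie above both controls in every panel, and the SCI groups overlap in every panel.

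Trem2 (chr17:48346401-48354147, + strand, GRCm38) encodes the lipid-sensing receptor of the programme. It was at 11.93 TPM in Uninjured Control replicate 1 and at 0 in replicate 2, from 90 and 0 counts. In the SCI + Vehicle mice it lay between 165.14 and 243.45 TPM (median 183.45), and in the SCI + Atorvastatin mice between 173.02 and 316.2 TPM (median 209.01). The lowest injured mouse was therefore well above the higher control. The log2 fold change was 4.92 (SE 0.97, edgeR adjusted p = 0.0038) in SCI + Vehicle and 5.13 (SE 1.00, adjusted p = 0.00262) in SCI + Atorvastatin. The size depends on the control: in CPM the SCI + Vehicle mean was 15.1-fold above replicate 1 alone and at least 503-fold above replicate 2, where a count of 0 was taken as up to 3 counts.

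Tyrobp (chr7:30413760-30417585, + strand), also called DAP12, is the ITAM-bearing adaptor that carries the Trem2 signal. Its TPM was 57.77 and 0 in the controls, from 170 and 33 counts. It lay between 241.67 and 451.45 TPM (median 354.5) in SCI + Vehicle and between 339.22 and 536.02 TPM (median 396.21) in SCI + Atorvastatin. The lowest injured mouse had more than the higher control by 4.99-fold in CPM. Its log2 fold change was 3.59 (SE 0.57, edgeR adjusted p = 0.00123) and 3.85 (SE 0.59, adjusted p = 0.000676). Against replicate 1 alone the SCI + Vehicle mean was 7.10-fold higher, and against replicate 2 alone 40.6-fold higher.

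Clec7a (chr6:129461591-129472779, − strand), or Dectin-1, is a receptor for fungal beta-glucans that also signals through Syk. It had 0 counts and 0 TPM in both controls. It lay between 48.61 and 103.76 TPM (median 85.89) in SCI + Vehicle and between 68.37 and 118.44 TPM (median 83.6) in SCI + Atorvastatin. SCI + Vehicle replicate 7 was the lowest SCI mouse, and the next lowest, at 68.37 TPM, was in the SCI + Atorvastatin group. Against a floor of 3 counts per control library the mean CPM was at least 538-fold higher in SCI + Vehicle and at least 593-fold higher in SCI + Atorvastatin. The edgeR test, made on the counts with their zeros and not against the floor, gave adjusted p = 1.64e-05 and 3.43e-06. Clec7a entered the test only through the SCI mice, so with no control counts the direction was fixed in advance. The p rests on those zeros and on the spread of the SCI mice. The same holds for Itgax, Cst7 and Lgals3 below.

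Itgax (chr7:128129547-128150657, + strand) encodes CD11c, the integrin alpha chain that pairs with Itgb2. It also had 0 counts and 0 TPM in both controls. It was the lowest of the 10 genes after injury, with 13.94 to 38.93 TPM (median 30.59) in SCI + Vehicle and 29.98 to 37.06 TPM (median 34.61) in SCI + Atorvastatin. The SCI + Vehicle mice were spread more widely, with a coefficient of variation of 31.3% against 7.93%, and SCI + Vehicle replicates 4 (20.48 TPM) and 7 (13.94 TPM) lay below all the others. The difference in spread was not tested. The mean CPM was at least 344.6-fold and at least 402-fold above the floor, and the edgeR test on the counts themselves gave adjusted p = 2.63e-05 and 8.85e-07.

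Axl (chr7:25757273-25788705, − strand) is a receptor tyrosine kinase that binds dying cells through its ligand Gas6. Unlike the previous receptors it was present in both controls, at 28.93 and 32.44 TPM from 1648 and 1977 counts. It rose to between 68.23 and 108.87 TPM (median 98.13) in SCI + Vehicle and to between 93.37 and 113.66 TPM (median 102.56) in SCI + Atorvastatin. This was the smallest change of the 10 genes, with the smallest SE of the 6 genes that had counts in a control, at a log2 fold change of 1.24 (SE 0.14, edgeR adjusted p = 0.000186) and 1.39 (SE 0.096, adjusted p = 1.25e-05). Against the single controls the SCI + Vehicle mean CPM was 2.47-fold and 2.29-fold higher.

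Cst7 (chr2:150570415-150578944, + strand) encodes cystatin F, an inhibitor that acts on cysteine cathepsins inside lysosomes. It had 0 counts and 0 TPM in both controls. It lay between 60.89 and 88.72 TPM (median 67.61) in SCI + Vehicle and between 67.21 and 119.53 TPM (median 80.75) in SCI + Atorvastatin. SCI + Atorvastatin replicate 3 was far above the rest of its group. The mean CPM was at least 161-fold and at least 180-fold above the floor, and the edgeR test on the counts themselves gave adjusted p = 1.82e-05 and 7.45e-06.

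Lpl (chr8:68880491-68907448, + strand) encodes lipoprotein lipase, which splits triglycerides of lipoproteins. The controls disagreed, with 2 counts and 0 TPM in replicate 1 and 274 counts and 8.29 TPM in replicate 2. After injury it lay between 57.3 and 109.77 TPM (median 86.27) in SCI + Vehicle and between 65.96 and 136.23 TPM (median 91.01) in SCI + Atorvastatin. All injured mice were above both controls, the lowest by 8.23-fold in CPM. Its log2 fold change was 4.45 (SE 0.97, edgeR adjusted p = 0.00665) and 4.60 (SE 1.00, adjusted p = 0.00464). With control replicate 2 alone the SCI + Vehicle mean CPM was 11.2-fold higher, and no fold was formed against the 2 counts of replicate 1 alone. The summed adipose markers were 0 TPM in both controls and 9.99 to 76.01 TPM in the SCI + Vehicle mice and 25.22 to 346.85 TPM in the SCI + Atorvastatin mice. Skeletal muscle markers reached 3279 TPM in SCI + Atorvastatin replicate 2 and 737 TPM in SCI + Vehicle replicate 3, against 32.43 and 74.42 TPM in the controls. The part of fat and muscle in the level of Lpl was not tested.

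Gpnmb (chr6:49036546-49070929, + strand) encodes a transmembrane glycoprotein found in lysosomes of macrophages and in melanosomes. It was at 4.34 and 1.42 TPM in the controls, from 142 and 45 counts. It reached 164.13 to 429.01 TPM (median 336.98) in SCI + Vehicle and 331.74 to 561.66 TPM (median 400.13) in SCI + Atorvastatin. Of the 6 genes with counts in a control it had the largest fold change, with a log2 fold change of 6.73 (SE 0.59, edgeR adjusted p = 6.22e-05) and 7.09 (SE 0.52, adjusted p = 1.55e-05). The SCI + Vehicle mean CPM was 68.5-fold above control replicate 1 and 239-fold above control replicate 2. The 6 melanocyte markers summed to at most 3.85 TPM in any mouse.

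Spp1 (chr5:104435118-104441050, + strand) encodes osteopontin, a secreted ligand of CD44 and of several integrins. It was the most abundant of the 10 genes in every group, at 212.27 and 255.41 TPM in the controls, 834.95 to 1358.5 TPM (median 1086.77) in SCI + Vehicle and 1101.69 to 1558.86 TPM (median 1155.36) in SCI + Atorvastatin. The log2 fold change was 1.99 (SE 0.19, edgeR adjusted p = 8.61e-05) and 2.18 (SE 0.18, adjusted p = 2.57e-05), and the lowest injured mouse was 3.09-fold above the higher control. Spp1 made up 67.3% and 85.8% of the summed TPM of the 10 genes in the controls, against 40.7% to 45.8% in the SCI mice. Motor neuron markers moved the other way: their sum was 247 and 333 TPM in the controls and 108 to 186 TPM in the SCI mice, and their part in the level of Spp1 was not tested.

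Lgals3 (chr14:47367751-47386160, + strand) encodes galectin-3, a lectin of phagocytes that gathers at damaged lysosomes. It had 0 counts and 0 TPM in both controls. It lay between 98.52 and 176.14 TPM (median 118.24) in SCI + Vehicle and between 128.71 and 199.61 TPM (median 147.43) in SCI + Atorvastatin. The mean CPM was at least 434-fold and at least 514-fold above the floor, and the edgeR test on the counts themselves gave adjusted p = 1.82e-05 and 3.10e-06.

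**Figure D2:**
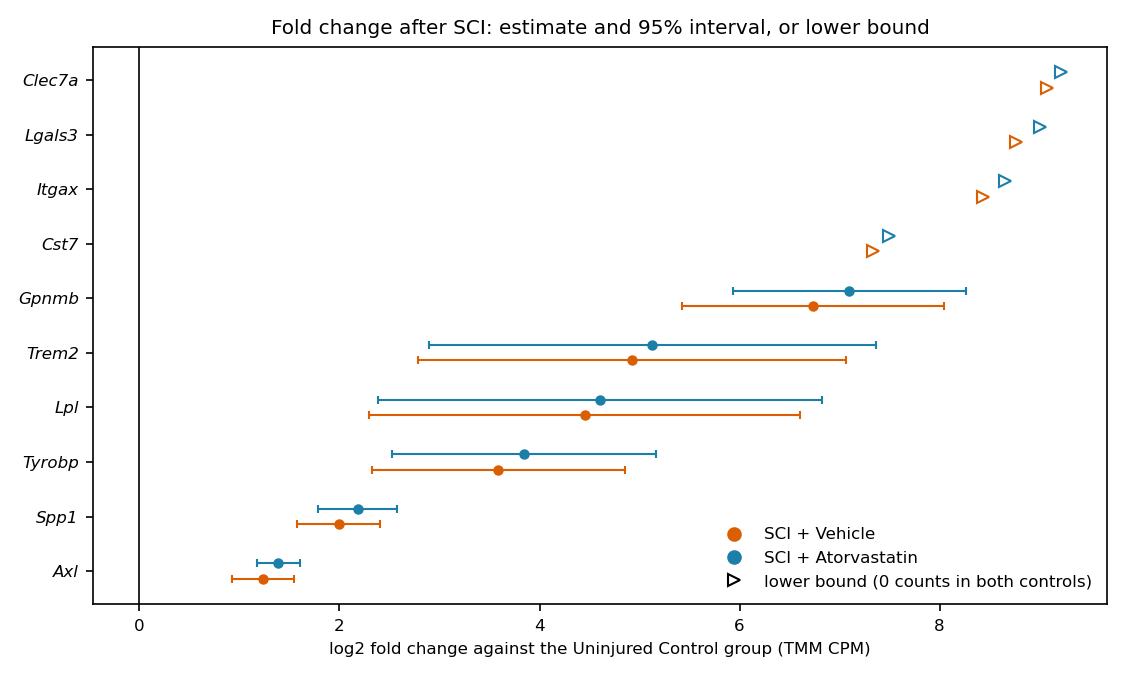
Log2 fold change against the Uninjured Control group (horizontal axis) for SCI + Vehicle (orange) and SCI + Atorvastatin (blue), as points with 95% intervals, or as open triangles for lower bounds of genes with 0 counts in both controls. The intervals of all 6 fitted genes lie above 0, from Axl at 1.24 and 1.39 to Gpnmb at 6.73 and 7.09.

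Clec7a, Itgax, Cst7 and Lgals3 had 0 counts in both controls and Trem2 had 0 in 1 of them. A 0 is a limit of up to 3 counts per library and does not show absence, and such limits cover counting error only.

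The order of the levels per transcript length was much the same in both SCI groups. Spp1 led with a mean of 1088 ± 175 TPM (SD, n = 7) in SCI + Vehicle, above Tyrobp at 350.8 ± 72.1 and Gpnmb at 330.0 ± 85.2, which overlapped. Trem2 followed at 193 ± 28.2 TPM and Lgals3 at 131 ± 30.4 TPM. Axl (94.9 ± 14.5), Clec7a (82.9 ± 16.9), Lpl (81.9 ± 18.9) and Cst7 (71.6 ± 11.8) lay within the spread of their neighbours, and Itgax was lowest at 29.1 ± 9.10 TPM. The controls had no common order beyond Spp1, which was highest in both. In replicate 1 it was followed by Tyrobp, Axl, Trem2 and Gpnmb, with the other 5 at 0 TPM, and in replicate 2 by Axl, Lpl and Gpnmb, with the other 6 at 0 TPM. Gpnmb stood last of the genes with a TPM above 0 in both controls and in the third place after injury.

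The genes around these 10 are described by lists chosen by function. Of 34 other genes of the disease-associated programme, 26 were upregulated and 1 was downregulated in SCI + Vehicle vs. Uninjured Control (median log2 fold change 1.75), and 27 and 1 in the SCI + Atorvastatin comparison (median 1.95). Downregulated genes made up 9.55% and 14% of all genes tested. The lysosomal protease Ctsd rose from 337.35 and 309.45 TPM in the controls to a mean of 2893 TPM in SCI + Vehicle (log2 fold change 2.87, edgeR adjusted p = 1.64e-05). Apoe, the main lipid carrier of the cord, rose from 7958 and 5888 TPM to a mean of 36210 TPM (log2 fold change 2.18, adjusted p = 8.93e-05). Lilrb4a, an inhibitory receptor with 0 counts in both controls, was at least 265-fold above the floor. The fatty acid binding protein Fabp3 was the downregulated gene, with a log2 fold change of -1.42.

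Genes of the resting microglial state were upregulated in part, where 19.8% (SCI + Vehicle) and 24.9% (SCI + Atorvastatin) of all genes tested were upregulated. Of 15 such genes, 8 were upregulated and none was downregulated in SCI + Vehicle vs. Uninjured Control (edgeR, median log2 fold change 2.25), and 9 and 1 in the SCI + Atorvastatin comparison (median 2.45), the 1 being the fructose transporter Slc2a5. Csf1r, the receptor for the microglial survival factor, rose from 23.12 and 29.18 TPM to a mean of 185 TPM (log2 fold change 2.59). The chemokine receptor Cx3cr1 rose from 11.53 and 19.55 TPM to a mean of 96.3 TPM (log2 fold change 2.56). The defining markers P2ry12 and Tmem119 were lower and more uneven in the controls, at 1.84 and 0 TPM and at 7.76 and 0 TPM. P2ry12 was upregulated to a mean of 17.1 TPM (adjusted p = 0.0215), and Tmem119, with a mean of 19.2 TPM, did not pass the test (adjusted p = 0.18). In SCI + Vehicle, Sall1, Siglech, Gpr34, Selplg, Bin1 and Slc2a5 did not pass either, with negative estimates for Bin1 and Slc2a5.

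The summed level of the 10 genes relative to the resting genes was higher in every SCI mouse than in the controls, by a margin that depended on a single gene of the resting list. The 10 genes summed to 0.714 and 0.534 times the homeostatic list in the controls, to between 1.35 and 1.83 times in SCI + Vehicle and to between 1.49 and 1.95 times in SCI + Atorvastatin. Without Spp1 the ratio was 0.233 and 0.0756 in the controls, against 0.762 to 0.990 and 0.826 to 1.11 in the SCI groups. Bin1, a membrane-bending protein that is not limited to microglia, made up 55.4% and 53.0% of the homeostatic sum in the controls and 12.9% to 23.3% in the SCI mice, at 244.73 and 295.81 TPM in the controls and 218.55 to 314.18 TPM in the SCI mice. When Bin1 was left out, an alternative chosen after seeing the data, the ratio with Spp1 was 1.60 and 1.14 in the controls and 1.66 to 2.24 in the SCI mice, so that the gap nearly closed. Without Spp1 and Bin1 it was 0.523 and 0.161 in the controls and 0.937 to 1.28 in the SCI mice. Against the myeloid shared list, 10 genes common to microglia and macrophages such as Ptprc, C1qa and Ctss, the ratio was 0.672 and 0.993 in the controls and lower in every SCI mouse, between 0.499 and 0.632. Without Spp1 that ratio was 0.324 and 0.0952 in the controls and 0.275 to 0.358 in the SCI mice, so that the groups overlapped. The ratios are descriptions of values that already differ between the groups and were not tested.

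**Figure D3:**
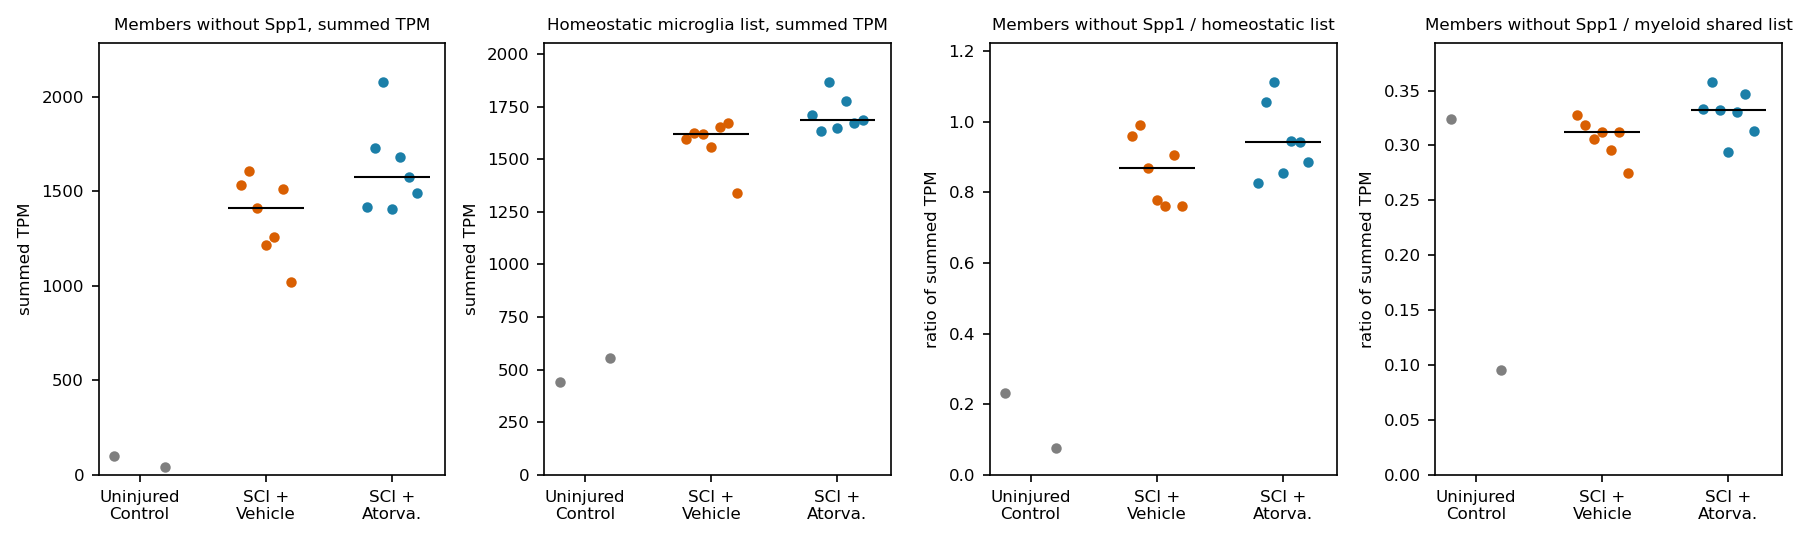
Summed TPM of the 10 genes without Spp1 and of the homeostatic microglia list in each mouse, and the ratios of the former to the homeostatic and to the myeloid shared list (vertical axes, from 0), with horizontal lines at the medians of the SCI groups. The ratio to the homeostatic list, Bin1 included, lies higher in all SCI mice than in the controls at 0.233 and 0.0756, whereas control replicate 1, at 0.324, lies among the SCI mice in the ratio to the myeloid shared list.

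Downstream and partner genes rose in part. Of 14 genes for signalling from Trem2, Tyrobp and Clec7a, 8 were upregulated in SCI + Vehicle and 10 in SCI + Atorvastatin, and none was downregulated in either edgeR comparison. The kinases Syk (log2 fold change 2.33) and Lyn (2.92) and the phosphatases Ptpn6 (3.65) and Inpp5d (2.58) were among the 8, whereas Card9, the adaptor downstream of Clec7a, was not (1.54, adjusted p = 0.37). Of 19 tested partners of the 10 proteins, 11 were upregulated in SCI + Vehicle. They included the osteopontin receptor Cd44 (log2 fold change 2.63) and the beta chain of CD11c, Itgb2 (5.60). The Axl ligand Gas6 was at a mean of 147 TPM beside 130.14 and 121.68 TPM in the controls and did not pass the test (adjusted p = 1), while the related ligand Pros1 was upregulated (1.42). Of 14 transcription factors and nuclear receptors known to act on the programme, 6 were upregulated and 1 was downregulated in SCI + Vehicle. The myeloid factor Spi1 (PU.1) had 0 counts in both controls and was at least 130-fold above the floor, while Mitf (log2 fold change 0.46, adjusted p = 0.41) and Tfeb (0.05, adjusted p = 0.95) did not pass.

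Markers of other cells that can transcribe these genes differed in how they went with injury. Myeloid shared genes were upregulated in 8 of 10 in both comparisons (median log2 fold change 3.44 and 3.63). Of 8 markers of border-associated and perivascular macrophages, 4 were upregulated in each comparison, all 4 with 0 counts in both controls, and the list summed to 7.89 and 66.8 TPM in the controls, 18.45 to 119 TPM in SCI + Vehicle and 63.9 to 107 TPM in SCI + Atorvastatin. The defining markers Mrc1 (mean 10.0 TPM in SCI + Vehicle) and Lyve1 (1.35 TPM) were low and did not pass. Of 8 monocyte markers 4 were upregulated in SCI + Vehicle, and 6 had 0 counts in both controls. The list summed to 93.8 and 53.8 TPM in the controls and 38.0 to 114 TPM in SCI + Vehicle, but Hp (haptoglobin), which the liver also makes, gave 86.92 and 26.23 TPM of the control sums. Without Hp the sums were 6.84 and 27.58 TPM in the controls, from Vcan alone, and 33.8 to 98.7 TPM in SCI + Vehicle. The part of infiltrating and border macrophages in the levels of the 10 genes was not tested.

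No member of the set passed the test between the treatments. For the direct comparison of the injured groups the study's limit was an unadjusted p below 0.001, which 17 of the 16091 genes passed with a change of over 25% (0.106%), and the smallest adjusted p over all genes was 0.68 in edgeR. Neither edgeR nor DESeq2 called any of the 10, and at an unadjusted p below 0.05 the tools counted 1 and 0 of them. All 10 point estimates were higher with atorvastatin, by a median of 0.17 on the log2 scale, beside a median of -0.0014 over all genes. Many of the 10 genes vary together from mouse to mouse, as given below, so 10 estimates of the same sign are not 10 separate observations.

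Gpnmb had the largest difference, a log2 change of 0.34 (95% interval 0.01 to 0.67, edgeR adjusted p = 0.706), which is 26.5% higher. It was the only one of the 10 with an unadjusted p below 0.05, which 7.03% of all genes reached. Its groups overlapped: 6 of 7 SCI + Atorvastatin mice were above the SCI + Vehicle median and 2 were above the highest SCI + Vehicle mouse. Leaving out single mice moved the change to between 0.22 and 0.44, and it was 0.22 without SCI + Vehicle replicate 7, the mouse with the lowest Gpnmb. An exact two-sided permutation test on log2(TPM + 1) over all 3432 assignments gave p = 0.0501.

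The intervals of the other 9 genes spanned 0. Lgals3 differed by 0.24 (95% interval -0.07 to 0.55), Tyrobp by 0.23 (-0.06 to 0.52), Itgax by 0.22 (-0.10 to 0.54) and Trem2 by 0.18 (-0.09 to 0.45). Spp1 differed by 0.17 (-0.05 to 0.38), Cst7 by 0.16 (-0.13 to 0.45), Clec7a by 0.14 (-0.15 to 0.42), Lpl by 0.13 (-0.19 to 0.45) and Axl by 0.13 (-0.02 to 0.28). Leaving out single mice moved 7 of these 9 estimates by over 1.5 times, although all stayed above 0 and none was called. Without SCI + Atorvastatin replicate 3 the difference was 0.05 for Trem2, 0.14 for Tyrobp, 0.09 for Spp1 and 0.05 for Cst7. Without SCI + Vehicle replicate 7 it was 0.11 for Itgax, 0.06 for Clec7a and 0.07 for Lpl. Clec7a was also lower without SCI + Atorvastatin replicates 5 (0.06) or 2 (0.09). Lpl ranged from 0.03 without SCI + Atorvastatin replicate 6 to 0.24 without SCI + Vehicle replicate 1, with 0.07 without SCI + Vehicle replicate 4, 0.08 and 0.20 without SCI + Atorvastatin replicates 2 and 4. Read as percentages, the data leave room for a change in Axl from -1.54% to 21.5% and in Gpnmb from 0.745% to 58.8%. The lowest bound of the 10 intervals was that of Lpl, at -12.5%.

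**Figure D4:**
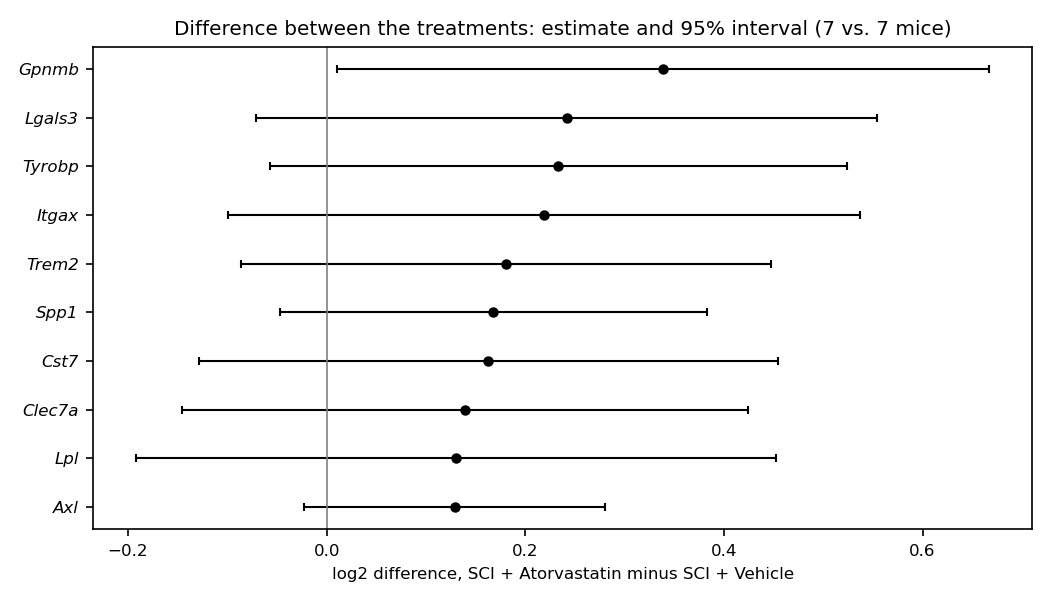
Log2 difference of SCI + Atorvastatin minus SCI + Vehicle (horizontal axis) for each of the 10 genes, with 95% intervals derived from the edgeR test over 7 and 7 mice. All points lie above 0, from 0.13 for Axl to 0.34 for Gpnmb, and every interval but that of Gpnmb spans 0.

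None of the other disease-associated genes, homeostatic genes, signalling genes, partners or regulators was called between the treatments in edgeR, with 31 of 34, 12 of 15, 11 of 14, 14 of 19 and 10 of 14 estimates higher beside 7830 of 16091 over all genes tested, and with 8, 3, 5, 4 and 1 genes at an unadjusted p below 0.05. Myeloid shared genes were higher in 10 of 10 (median log2 difference 0.13) and border macrophage markers in 8 of 8 (0.56), and none was called. Monocyte markers were higher in 6 of 8 and neutrophil markers in 3 of 6. Estimates higher with atorvastatin were therefore not particular to the 10 genes. All 6 fibroblast markers were higher with atorvastatin (median log2 difference 0.94), each at an unadjusted p below 0.05 and none called. They summed to 71.25 to 694 TPM in SCI + Vehicle and 452 to 1158 TPM in SCI + Atorvastatin. SCI + Vehicle replicate 7, with the lowest TPM of all 14 SCI mice for 6 of the 10 genes, also had the lowest fibroblast sum (71.25 TPM) and the lowest border macrophage sum (18.45 TPM). Motor neuron markers were lower in all 6 (median -0.32). Whether the make-up of the piece of cord taken plays a part in these differences was not tested.

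Among the 14 SCI mice many of the 10 genes varied together. With each group's mean removed, Pearson's r on log2(CPM + 1) was positive for 44 of the 45 pairs, with a median of 0.56. In all, 65 relations were computed, the 45 pairs and each gene against the homeostatic and the myeloid shared list, with permutation p from 100000 resamples within groups, adjusted over all 65. Of the 45 pairs 18 had an adjusted p below 0.05 by Pearson's r and 12 by Spearman's rho. The mice share the scaling of their libraries, and on log2(TPM + 1) only 7 pairs passed by Pearson's r. On that scale 0 of the 10 relations with the homeostatic list and 4 of the 10 with the myeloid shared list passed.

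Trem2 and its adaptor Tyrobp followed each other closely (r = 0.83, rho = 0.88, adjusted permutation p = 0.00114 and 0.00341; r = 0.76 without the 2 mice farthest from the median of Trem2). Against the myeloid shared list both had r = 0.92 (adjusted permutation p = 0.00065 each). Spp1 went with Lgals3 and Gpnmb. Spp1 correlated with Lgals3 at r = 0.83 (rho = 0.85, adjusted permutation p = 0.00436 and 0.00639) and with Gpnmb at r = 0.81 (rho = 0.87, adjusted permutation p = 0.000867 and 0.00341). Without the 2 farthest mice these were 0.81 and 0.80. By Pearson's r, Itgax went with Gpnmb (r = 0.75), Clec7a (r = 0.73) and Lpl (r = 0.70) rather than with Trem2 (r = 0.29, adjusted permutation p = 0.239), a contrast that was not itself tested. By Spearman's rho only Lpl passed (rho = 0.66, adjusted permutation p = 0.0369). Clec7a had rho = 0.63 (adjusted permutation p = 0.0507) and Gpnmb rho = 0.51 (adjusted permutation p = 0.146). Without SCI + Vehicle replicate 7, 1 of the 9 pairs with Itgax passed by Pearson's r and 0 by Spearman's rho.

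Axl and Lpl were the only pair with a negative r (-0.15, adjusted permutation p = 0.673), and it became 0.60 without the 2 mice farthest from the Lpl median, so it rests on those mice. Axl went with Trem2 by Pearson's r (r = 0.56, adjusted permutation p = 0.0351) and with Tyrobp by Spearman's rho (rho = 0.67, adjusted permutation p = 0.0369). Its highest r was with the homeostatic list (r = 0.76, rho = 0.76, adjusted permutation p = 0.0168 and 0.0247), at 0.69 without the 2 farthest mice. That r was 0.83 within SCI + Vehicle and 0.73 within SCI + Atorvastatin. These relations of Axl depend on the scale, because on log2(TPM + 1) none of them passed. Lpl went with Itgax, as above, and by Pearson's r with Gpnmb (r = 0.64, rho = 0.60, adjusted permutation p = 0.041 and 0.0674). It had r = 0.11 with the homeostatic list and 0.39 with the myeloid shared list. The homeostatic list followed the 10 genes more in the SCI + Atorvastatin mice (median r = 0.73) than in the SCI + Vehicle mice (median r = 0.31), a difference that was not tested, and without SCI + Vehicle replicate 7 the latter median was -0.13.

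**Figure D5:**
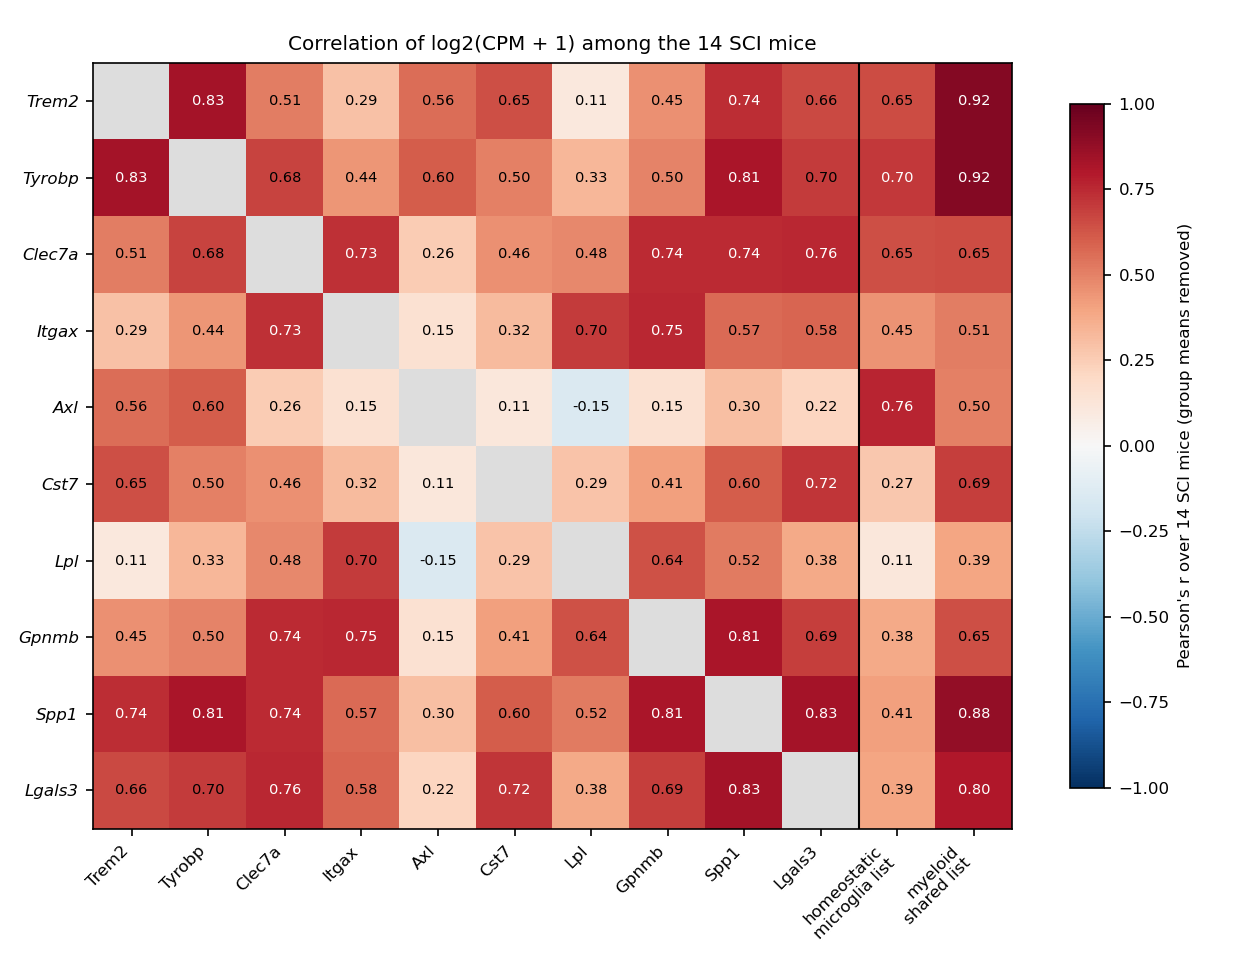
Pearson's r (colour, and printed in each cell) of log2(CPM + 1) over the 14 SCI mice with group means removed, between the 10 genes and, right of the line, with the homeostatic microglia and myeloid shared lists. The darkest cells are Trem2 and Tyrobp with the myeloid shared list at 0.92, and the row of Axl is the palest apart from its 0.76 with the homeostatic list.

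The mice could be ordered by how high the 10 genes stood. SCI + Atorvastatin replicate 3 had the highest TPM of all 14 SCI mice for 6 of the 10 genes and SCI + Vehicle replicate 7 the lowest for 6. Of 15921 other genes ranked, the 5 whose log2 CPM followed the mean standardised level of the 10 genes most closely were Wtap (r = 0.95), Hexa (0.95), Olfml3 (0.94), Ctsl (0.94) and Bcl2a1d (0.92), over 14 mice with group means removed and given with no test. Hexa encodes the alpha subunit of the lysosomal enzyme hexosaminidase A, Ctsl is a lysosomal protease, and Olfml3 is a secreted protein counted here among the homeostatic genes. Wtap, a subunit of the RNA methyltransferase complex, was at 41.04 and 39.03 TPM in the controls beside a mean of 50.2 TPM after injury. Without SCI + Vehicle replicate 7 the 5 correlations lay between 0.906 and 0.940.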

How the data were processed

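The deposited tables give, for each mouse, whole-number counts and TPM of 24411 gene symbols. Per the labels, the authors used FastQC 0.12.1, Trimmomatic 0.38, STAR 2.5.4b and RSEM 1.3.1 with the build mm10 on libraries from a stranded total RNA kit. The deposited TPM are normalized for transcript length by the authors, and the deposited counts carry no normalization. The step that made the counts is not given in the sources used here, nor is the strand setting. Spp1 shares 309 of its 1648 exon bases with another annotated gene on the same strand, which is not a row of the tables.

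Groups follow the titles of the samples. A gene was tested if its TPM averaged over 1 in any of the 3 conditions, which left 16091 genes. Conditions were compared pair by pair by the quasi-likelihood test of edgeR 4.0.16 under R 4.3.3, after TMM scaling, with p-values adjusted over all genes tested by the Benjamini-Hochberg method. That test prints no SE, so each SE and 95% interval was derived from the estimate and its F statistic and is approximate. A count of 0 was taken as at most 3 counts per library. Correlations and exact permutation tests used numpy 2.4.6 in Python 3.11.15, with ranks from scipy 1.17.1 and a pseudocount of 1. Alternatives used DESeq2 1.42.0 and limma 3.58.1. The fits were also run on simulated data in which every group had the spread of the SCI + Atorvastatin mice. Such data do not hold the uneven controls, so they cannot show which fit suits these controls. Gene positions are from GENCODE vM21 and promoter windows from RefSeq, both on GRCm38.

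The 10 genes and the 22 lists of other genes were chosen with earlier results of these data known, so no p is given over a list. The text names the 10 genes, the list genes that were called with the smallest p or that define a list, and the 5 genes whose level followed the 10 most closely. Other list genes, such as Card9, Mitf and Tfeb, and SCI + Vehicle replicate 7, were singled out after their values were seen. With 1 library per mouse, p-values measure the spread between mice. In the comparisons with the 2 controls that spread comes mostly from the 7 SCI mice. The sources used here name no molecular identifiers, so floors from counts cover counting error only.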

Additional observations from a re-analysis of the deposited data

Results flagged for a closer look

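Of 20 groups examined (10 genes in each SCI group, TPM), 1 held a mouse far from the others of its group. Cst7 was at 119.53 TPM in SCI + Atorvastatin replicate 3, and the next mouse of the group was at 86.76 TPM, so that the gap took up 0.626 of the range of the group. The mouse was marked by Dixon's test at the 95% level, which by its construction marks about 1 in 20 groups by chance. Without this mouse the point estimate of Cst7 between the treatments was 0.05 on the log2 scale, against 0.16 with it.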

How the results depend on the processing

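Of the 10 genes, 10 in SCI + Vehicle and 10 in SCI + Atorvastatin were upregulated vs. Uninjured Control, and with each mouse left out the counts stayed between 10 and 10. With voom and group quality weights they were 0 and 1. With a mean TPM above 1 required in every condition they were 6 and 6, because the 4 genes at 0 in the controls were not tested. With the replicate block they were 3 and 0, in fits that called 16 and 0 of all 16091 genes, although all 10 genes kept an unadjusted p below 0.05. Between the treatments the block gave 0. The replicate numbers did not pair the mice: same-numbered mice correlated at -0.19 to 0.11, with 1 of 7 pairs above 0.1 and 0 of 7 mice closest to their own number. Other settings, DESeq2 and all 3 groups in 1 fit among them, gave 10 and 10. Between the treatments the count was 0 in every setting, 0 to 0 with single mice left out. The added alternatives were chosen after seeing the data: log2(TPM + 0.1) and log2(CPM + 1) in the exact permutation test, which gave 0 genes under 0.05, and leaving out single mice from it, which gave 0 to 3 genes (3 without SCI + Vehicle replicate 1, 2 without replicate 2 or 6 of that group and 1 without SCI + Atorvastatin replicate 1). The 29 of 65 relations with an adjusted p below 0.05 became 11 on log2(TPM + 1), 35 with CPM on total counts and 21 to 30 without SCI + Vehicle replicate 7 or 4. With the floor of 3 counts taken over both controls together, the lower bounds of Clec7a, Itgax, Cst7 and Lgals3 rose to 1079, 691, 323 and 871 in SCI + Vehicle and 1190, 805, 362 and 1031 in SCI + Atorvastatin. Apart from filter and floor, the cause was not tested. With 2 controls, fold changes of genes at few control counts are poorly bounded.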

Other observations

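Other marker lists were measured to see what else the pieces of cord held. Vs. Uninjured Control (SCI + Vehicle, then SCI + Atorvastatin, edgeR), astrocyte markers were upregulated in 4 and 4 of 6, neutrophil markers in 3 and 3 of 6, dendritic cell markers in 1 and 2 of 5 with 1 and 0 downregulated, NK and cytotoxic T cell markers in 1 and 2 of 2, adipose markers in 1 and 3 of 5, and the 1 tested melanocyte marker in both. Monocyte markers were upregulated in 4 and 6 of 8, with haptoglobin (Hp), also a liver product, downregulated in both. Fibroblast markers were upregulated in 0 and 4 of 6, bone markers in 0 and 2 of 5, endothelial markers in 0 and 1 of 6 and skeletal muscle markers in 0 and 0 of 6. Neuron markers were downregulated in 5 and 5 of 7, motor neuron markers in 2 and 3 of 6, oligodendrocyte markers in 1 and 3 of 6 and liver markers in 6 and 6 of 6. All tested NK and cytotoxic T cell, adipose and melanocyte markers had 0 counts in both controls. They entered only through the SCI mice and could only go up. Over all genes tested, 19.8% and 24.9% were upregulated and 9.55% and 14% downregulated, so counts such as 1 of 6 lie near those shares. The part of the cells behind these lists in the levels of the 10 genes was not tested.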
